A study of Papio hamadryas with 14 samples.

Results

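Whole kidneys of baboon fetuses (Papio hamadryas) at 160 days of gestation were compared with kidneys at 90 days, labelled 160dG and 90dG. Each stage has 3 arrays, so 6 of the 14 arrays of the series form the contrast, chosen by the stage in the sample titles and not by any measured value. No treatment is named for any animal, and the labels call the samples of a stage biological replicates. RNA of each kidney was hybridised to a human Affymetrix array, so a baboon transcript that differs from its human probes can read low. Of 9580 genes with a probe set, 5278 were bright enough to be tested, and all of them were tested together. The 60dG (2 arrays) and 125dG (3 arrays) kidneys of the same array type entered the model to estimate the spread of each gene, and adult kidneys were not used.

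The kidney grows by branching of the ureteric bud into a mesenchyme whose progenitor cells cap each bud tip. Those progenitors either renew themselves or fold into vesicles that lengthen into podocytes, proximal tubule, loop of Henle and distal tubule, while stromal cells lay down the matrix between them. In primates the progenitors are used up before birth, and salt transport in the thick ascending limb and the collecting duct matures late. The contrast asks which transcripts separate a kidney in the midst of nephron formation from one late in gestation. In whole tissue, fewer cells of a type and less RNA per cell cannot be told apart.

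Values below are probe set signals on the authors' linear scale. Differences are 160dG minus 90dG in log2(signal + 16) with the standard error of the model, so that 1 unit is close to a 2-fold change and the change of a dim gene is understated. A gene is called when limma gave an adjusted p under 0.05 over all 5278 genes, and the words rose and fell are kept for called genes. The 3 values of a stage are given in the order of replicates 1, 2 and 3 in the sample titles, which state no pairing between stages. Unless an overlap is named, the 3 arrays of one stage lay wholly above the 3 of the other in every called gene whose array values are printed. The probe sets used for PTGER3, MCAM, PTGDS, APOA1, HBB, CD46, RPL38, HSP90B1, UGT2B15, TUBB3, PTTG1, RPL12, CALR and PTBP1 are named by the maker as open to binding similar transcripts. The 6 arrays were alike in brightness, with median signals from 172.9 to 192.5. Of the kidney's defining markers, the podocyte gene NPHS1, the proximal tubule genes LRP2 and SLC34A1, the thick limb gene SLC12A1 and the collecting duct gene AQP2 were bright enough to be tested.

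Some 90dG arrays stood apart by their controls. GAPDH probe sets at the 3' and 5' ends of the transcript gave a signal ratio, which rises when RNA is shortened, of 1.78, 2.46 and 3.43 on 90dG replicates 1, 2 and 3, and 1.62, 1.96 and 1.96 on the 160dG arrays. For the actin control the ratio was 1.25, 1.93 and 3.03 at 90dG and 1.03, 0.93 and 1.22 at 160dG. The geometric mean signal of 9 spike-in control probe sets was 581, 1198 and 1350 at 90dG and 1787, 1724 and 1882 at 160dG. Results are therefore also given without 90dG replicates 2 and 3. That fit leaves replicate 1 as the lone 90dG array, assumed to vary like the other stages, and it is called the reduced fit below. That array had the lowest weight of the 11 in limma's array weights (0.50, against 1.78 and 0.70 for 90dG replicates 2 and 3) and the lowest mean correlation with its own stage (0.914). With 1 array the standard errors are also larger, so a call can be lost without a smaller difference. The part of RNA quality in any single difference was not tested.

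Of the 5278 tested genes, 892 (16.9%) differed, 404 (7.65%) higher and 488 (9.25%) lower at 160dG. At least a 2-fold difference was reached by 142 of the higher and 125 of the lower genes, and at least a 4-fold difference by 4 and 7. The median difference of all tested genes was -0.02. The 3 arrays of one stage all lay above the 3 of the other for 34.5% of the tested genes, 14.9% higher and 19.6% lower at 160dG. The 125dG mean lay between the 90dG and 160dG means for 331 of the 404 rises and 438 of the 488 falls. In the reduced fit 278 genes were called, 148 higher and 130 lower, and a fit that adjusts for the GAPDH ratio called 434, of which 217 were higher and 217 lower. A set of 210 genes, 94 higher and 116 lower, was called in the model with all arrays, in the reduced fit and with the covariate. Single arrays also carried weight. Dropping 90dG replicate 3 left 485 calls and dropping 160dG replicate 3 left 531, whereas dropping 90dG replicate 1 gave 898.

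**Figure D1:**
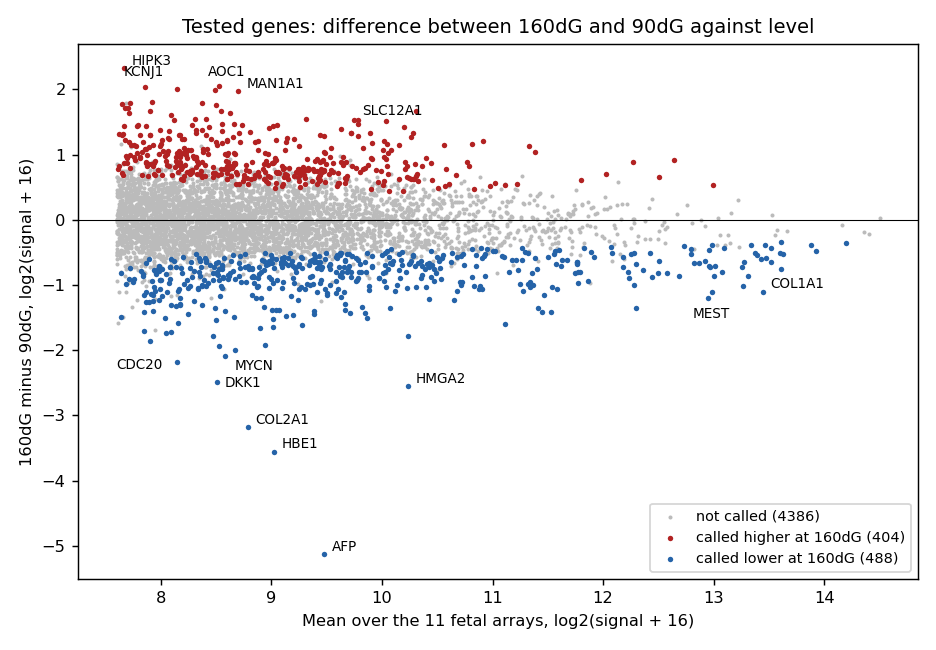
Difference between 160dG and 90dG (y axis, log2) of each of the 5278 tested genes against its mean level over 11 fetal arrays (x axis, log2(signal + 16)), coloured by call. The 7 falls of 4-fold or more reach -5.13 for AFP, while the largest rise is 2.32 for HIPK3.

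The largest fall was that of AFP, alpha-fetoprotein, the main plasma protein of the early fetus. Its signal was 3724, 3637 and 3263 on the 90dG arrays and 117, 58.3 and 88.3 on the 160dG arrays, a difference of -5.13 ± 0.39 (limma, adjusted p = 7.45e-06), or 35.1-fold. No 160dG array came near a 90dG array, and the 90dG values lay close together. HBE1, the epsilon globin chain of embryonic red cells, gave 2221, 1144 and 1633 on the 90dG arrays and 112, 119 and 136 on the 160dG arrays, a difference of -3.56 ± 0.32 (limma, adjusted p = 2.29e-05). COL2A1, the type II collagen best known from cartilage, gave 973, 959 and 917 on the 90dG arrays and 62.6, 161 and 69.6 on the 160dG arrays and differed by -3.19 ± 0.27 (limma, adjusted p = 1.62e-05). A second COL2A1 probe set differed by -2.01. In all 3 genes the groups were far apart, and the reduced fit gave -5.21, -4.02 and -3.22, with the calls held.

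AFP, HBE1 and COL2A1 are also markers of liver, red cells and cartilage, and the other markers of those tissues were as follows. Of 23 liver and plasma protein genes with a probe set, 4 were tested and 2 fell, AFP and the apolipoprotein APOA1 (-1.71 ± 0.27, limma adjusted p = 0.00135). The summed signal of the 23 was 6216 to 6787 at 90dG and 2283 to 2498 at 160dG, and ALB, serum albumin, read 106, 66.0 and 53.0 on the 90dG arrays and 46.2, 60.4 and 47.6 on the 160dG arrays, too dim to be tested. Of 6 tested erythroid genes HBE1 fell and the adult chain HBB rose, and the other 4 were not called. HBB gave 275, 191 and 298 on the 90dG arrays and 687, 536 and 573 on the 160dG arrays, a difference of 1.20 ± 0.20 (limma, adjusted p = 0.00184). The 19 erythroid genes summed to 4961 to 6713 at 90dG and 4139 to 4794 at 160dG. ALAS2, the haem enzyme of red cell precursors, was too dim to be tested. It read 60.6, 9.1 and 120.7 on the 90dG arrays and 4.1, 9.2 and 7 on the 160dG arrays, with overlapping groups. Without the filter it differed by -1.50 ± 0.51 and was not called (limma, adjusted p = 0.0881). Of 4 tested cartilage genes, all with negative differences, COL2A1 and SOX9 fell. The cartilage genes ACAN and COL9A1 were too dim to be tested and read at most 108 and 25.0 on the 6 arrays. COMP, another dim cartilage gene, read 121, 77.9 and 73.3 on the 90dG arrays and 56.2, 3.4 and 8.9 on the 160dG arrays and was lower without the filter (-1.68 ± 0.48, limma adjusted p = 0.0462). The summed signal of the 16 cartilage genes was 2899 to 3460 at 90dG and 1660 to 1757 at 160dG. Of 4 tested neural genes UCHL1 (-0.97 ± 0.21) and TUBB3 (-0.96 ± 0.16) fell, and STMN2 was dim at both stages. The part of other tissues in these differences was not tested.

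HMGA2, a chromatin protein of growing fetal tissue, had the smallest adjusted p of the comparison. Its signal was 1969.5, 2375 and 2346 on the 90dG arrays and 380.2, 418 and 307 on the 160dG arrays, a difference of -2.55 ± 0.16 (limma, adjusted p = 7.79e-07), or 5.87-fold. At 125dG it read 777, 725 and 799.7, between both groups. DKK1, a secreted antagonist of Wnt signals, read 751, 793 and 653 on the 90dG arrays and 118, 160.0 and 83.2 on the 160dG arrays, a difference of -2.49 ± 0.22 (limma, adjusted p = 2.29e-05). MYCN, a transcription factor that keeps nephron progenitors dividing, read 468, 635 and 702 on the 90dG arrays and 134, 144 and 107 on the 160dG arrays, a difference of -2.09 ± 0.25 (limma, adjusted p = 3.06e-04). In each of these 3 genes the lowest 90dG array lay far above the highest 160dG array.

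The other 9 of the 15 largest falls were mostly genes of cell division. CDC20, the activator of the anaphase-promoting complex, CKS2, a subunit that binds cyclin-dependent kinases, PRC1, which bundles the spindle midzone, and the cyclin CCNB2 differed by -2.18 ± 0.32, -1.99 ± 0.19, -1.94 ± 0.20 and -1.92 ± 0.23. H2AX, a histone that marks DNA breaks, and the mitotic brake kinase WEE1 differed by -1.78 ± 0.20 and -1.86 ± 0.40. LEF1, a nuclear effector of Wnt signals, read 489, 494 and 517 on the 90dG arrays and 122, 242 and 77.8 on the 160dG arrays and differed by -1.79 ± 0.28 (limma, adjusted p = 0.00113). The phosphatase subunit PPP4C (-1.74 ± 0.48) and the membrane protein IGSF1 (-1.72 ± 0.23) complete the set. The reduced fit held 13 of the 15 falls and lost WEE1 (limma, adjusted p = 0.124) and PPP4C (0.158). The other H2AX probe sets differed by -0.26 and -0.71. A second WEE1 probe set differed by 0.44, against the direction of the one used.

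**Figure D2:**
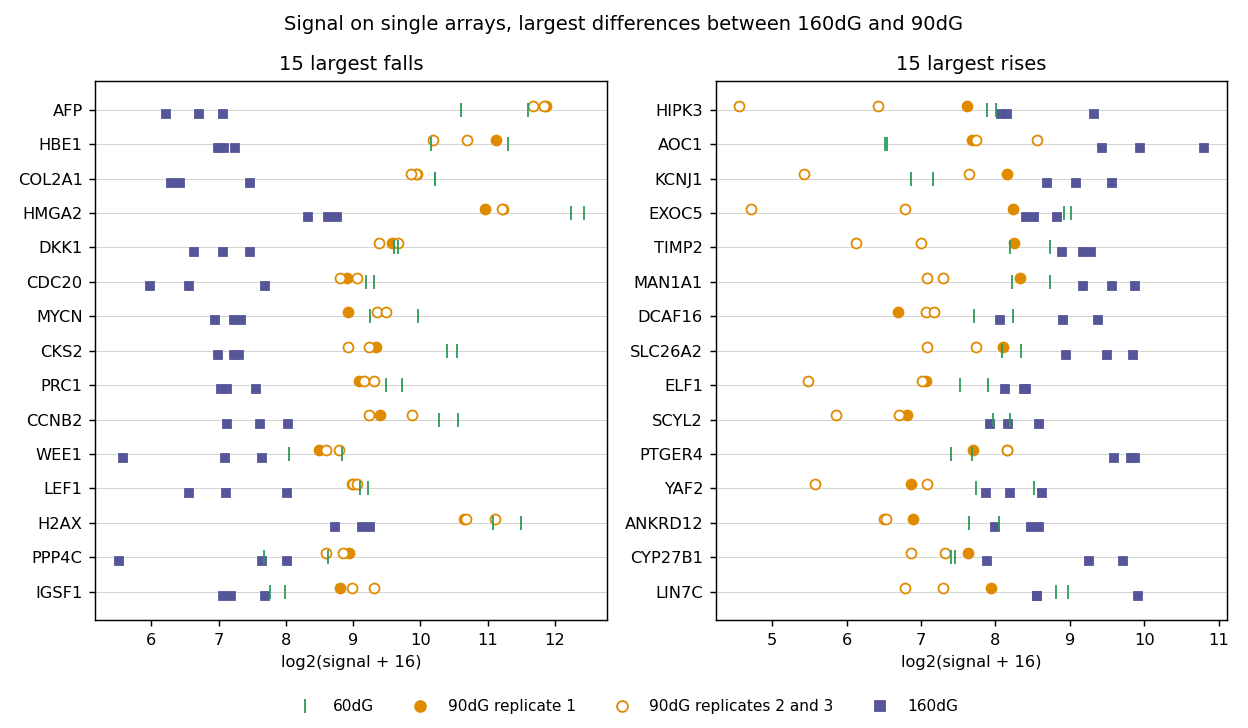
Signal of the 15 largest falls (left) and 15 largest rises (right) on each array, as log2(signal + 16); squares are 160dG, filled circles 90dG replicate 1, open circles 90dG replicates 2 and 3, and green ticks 60dG. Among the falls the 90dG circles lie together, whereas for HIPK3, KCNJ1 and EXOC5 an open circle lies far below the filled one.

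The 15 largest rises behaved less evenly across the 90dG arrays. HIPK3, a nuclear protein kinase, read 179.5, 69.4 and 7.5 on the 90dG arrays and 625, 255 and 268 on the 160dG arrays, a difference of 2.32 ± 0.57 (limma, adjusted p = 0.0146). The groups did not overlap, but 90dG replicate 1 lay far nearer the 160dG arrays than replicates 2 and 3 did, and the 60dG arrays read 240.4 and 221. KCNJ1, the potassium channel ROMK of the thick limb and collecting duct, read 268, 184 and 27.2 on the 90dG arrays and 739.7, 526 and 397 on the 160dG arrays (2.03 ± 0.51, limma adjusted p = 0.0164). EXOC5, a subunit of the exocyst that docks vesicles, read 285, 94.4 and 10.4 on the 90dG arrays and 436, 325 and 352 on the 160dG arrays (2.01 ± 0.57, limma adjusted p = 0.0294), and TIMP2, an inhibitor of metalloproteinases, 288, 54.0 and 112 on the 90dG arrays and 606, 561 and 459.8 on the 160dG arrays (1.99 ± 0.39, limma adjusted p = 0.00477). In each of these 4 genes 90dG replicate 2 or 3 was the lowest of the 6 arrays and replicate 1 the highest of the 90dG arrays. The reduced fit gave 0.91, 0.96, 0.35 and 0.87, and none of the 4 was called in it. It also lost YAF2, CYP27B1 and LIN7C and held the other 8.

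Among the 8 held rises, AOC1, diamine oxidase, which breaks down histamine and putrescine, read 190.0, 362 and 198 on the 90dG arrays and 965, 676 and 1770.0 on the 160dG arrays, a difference of 2.06 ± 0.32 (limma, adjusted p = 0.0011), or 4.17-fold. Its 60dG arrays read 75.6 and 76.9, below every later array. PTGER4, the prostaglandin E2 receptor EP4, read 191, 268 and 269.6 on the 90dG arrays and 753, 918 and 884 on the 160dG arrays, with the smallest standard error of the 15 (1.76 ± 0.18, limma adjusted p = 9.00e-05), and the reduced fit gave 2.06. MAN1A1, a Golgi mannosidase that trims N-glycans, differed by 1.97 ± 0.29 (a second probe set gave 0.20), and SLC26A2, a sulphate transporter, by 1.79 ± 0.28. DCAF16 (1.81 ± 0.32), a receptor of a ubiquitin ligase, the ETS transcription factor ELF1 (1.79 ± 0.35), SCYL2 (1.77 ± 0.29) and ANKRD12 (1.71 ± 0.23) were also held, and for these 4 the 90dG arrays all lay below the 60dG arrays. YAF2 (1.72 ± 0.37), LIN7C (1.67 ± 0.35) and CYP27B1 (1.68 ± 0.44) are the lost ones. CYP27B1, which makes active vitamin D, read 183, 101 and 144 on the 90dG arrays and 826, 220.4 and 593 on the 160dG arrays, with a wide spread at 160dG.

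A pattern across all rises concerned the 60dG kidneys, which the contrast does not contain. Of the 404 genes called higher, 314 (77.7%) had a 90dG mean below the 60dG mean, against 46.4% of all tested genes. Of the 488 called lower, 107 (21.9%) did. The comparison of each stage with 90dG uses the same 90dG arrays, so these shares are no independent evidence. In the reduced fit 79 of the 314 and 23 of the other 90 rises were called, and 42 of the 107 and 79 of the other 381 falls. The rises had a median step of -0.47 between 60dG and 90dG, then of 0.65 up to 125dG and of 0.23 up to 160dG. For the falls these steps were 0.27, -0.51 and -0.28.

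**Figure D3:**
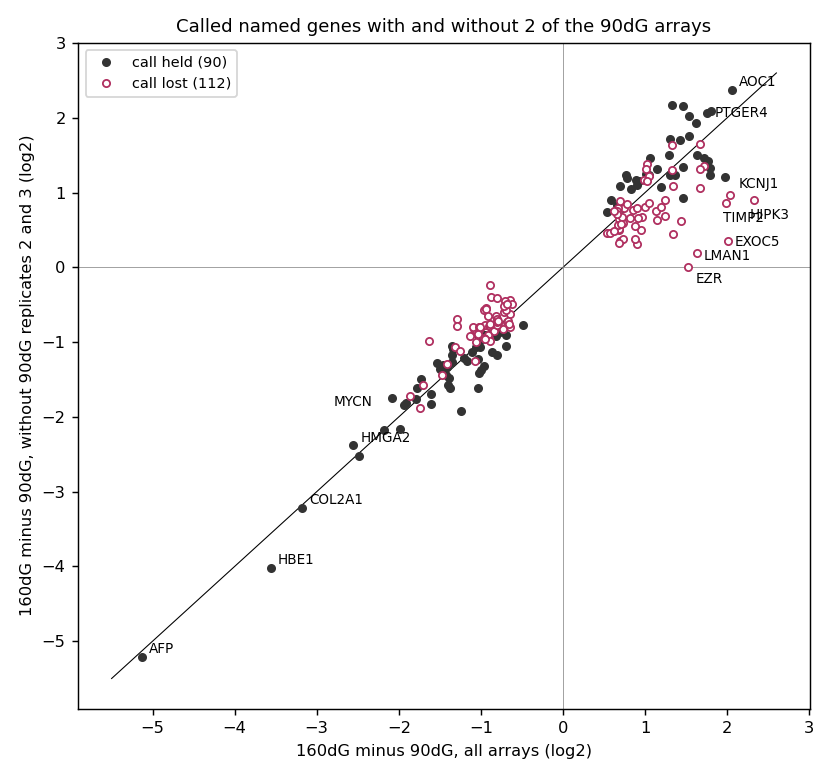
Difference between 160dG and 90dG of 202 called named genes with all arrays (x axis) and without 90dG replicates 2 and 3 (y axis), both in log2; filled points kept the call and open points lost it. AFP, HBE1, COL2A1 and HMGA2 lie near the line of equal values, whereas HIPK3, TIMP2, EXOC5, LMAN1 and EZR lie well below it.

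Genes of mitosis and the spindle fell together: of 46 members with a probe set 22 were tested, and 16 of these were lower and none higher, with a median of -1.19. Besides CDC20, CKS2, PRC1 and CCNB2 they included the ubiquitin-conjugating enzyme UBE2C, which read 1133, 719 and 1135 on the 90dG arrays and 270.4, 354 and 305 on the 160dG arrays (-1.61 ± 0.19, limma adjusted p = 2.80e-04). Securin, PTTG1, which holds sister chromatids until anaphase, read 1333, 1055 and 1614 on the 90dG arrays and 435, 573 and 441 on the 160dG arrays (-1.43 ± 0.18, limma adjusted p = 4.03e-04). The kinase CDK1 (-1.07 ± 0.25), cyclin CCNA2 (-1.25 ± 0.27) and the spindle protein NUSAP1 (-1.40 ± 0.19) also fell, and TOP2A, the topoisomerase that untangles chromosomes, differed by -1.24 ± 0.35 (limma, adjusted p = 0.0286). The proliferation marker MKI67 differed by -0.53 ± 0.25 and was not called (limma, adjusted p = 0.161). The mitotic kinase PLK1 differed by -1.49 ± 0.51 and missed the threshold (adjusted p = 0.0611 in limma). The reduced fit called 8 of the members and gave a median of -1.26, and the fit with the GAPDH covariate called 13.

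In the list of DNA replication and the G1/S step, 6 of 25 tested members fell and 1 rose, with a median of -0.41. Subunits of the replicative helicase made up 4 of the falls. MCM2 read 494, 714 and 1368 on the 90dG arrays and 235, 318 and 188 on the 160dG arrays (-1.64 ± 0.31, limma adjusted p = 0.00405), and MCM4 (-1.04 ± 0.28), MCM6 (-1.04 ± 0.17) and MCM7 (-1.02 ± 0.23) also fell. RRM1, the large subunit of ribonucleotide reductase, differed by -0.88 ± 0.28, and CDK4, the kinase that starts the cycle, by -0.69 ± 0.16. A second RRM1 probe set differed by 0.06. RFC5, a clamp loader subunit, was higher (1.32 ± 0.42), with 90dG values of 40.2, 88.9 and 161 that overlapped those at 160dG, 114, 333 and 343. In the reduced fit MCM2 (-0.98), MCM7 and RRM1 lost the call, whereas MCM4, MCM6, CDK4 and RFC5 (2.17) kept it. With the GAPDH covariate MCM4, MCM7 and RRM1 lost it.

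Chromatin genes followed the same direction. Of 24 tested genes of DNA methylation, Polycomb and related chromatin, 11 fell and 1 rose, with a median of -0.44. EZH2, the methyltransferase of Polycomb complex 2, read 493, 379.8 and 534 on the 90dG arrays and 178, 254 and 168 on the 160dG arrays (-1.17 ± 0.20, limma adjusted p = 0.00184). DNMT1, which copies methylation after replication, differed by -0.95 ± 0.20, and DNMT3B, which sets it anew, by -0.91 ± 0.23. The corepressor TRIM28 read 3517, 3292 and 3941 on the 90dG arrays and 1993, 1853 and 1582 on the 160dG arrays (-0.98 ± 0.14, limma adjusted p = 7.63e-04). The histone variant H2AZ1 (-0.94 ± 0.13), HMGB2 (-0.96 ± 0.27), lamin B1, LMNB1 (-1.41 ± 0.33), and the heterochromatin protein CBX5 (-0.69 ± 0.16) fell too. SUZ12, a partner of EZH2 in the same complex, was the single riser (0.62 ± 0.19). In the reduced fit DNMT1, DNMT3B, HMGB2 (-0.57), LMNB1 (-1.30), CBX5 and SUZ12 lost the call. All of these but DNMT1 also lost it with the GAPDH covariate. EZH2, TRIM28 and H2AZ1 kept it in both fits.

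**Figure D4:**
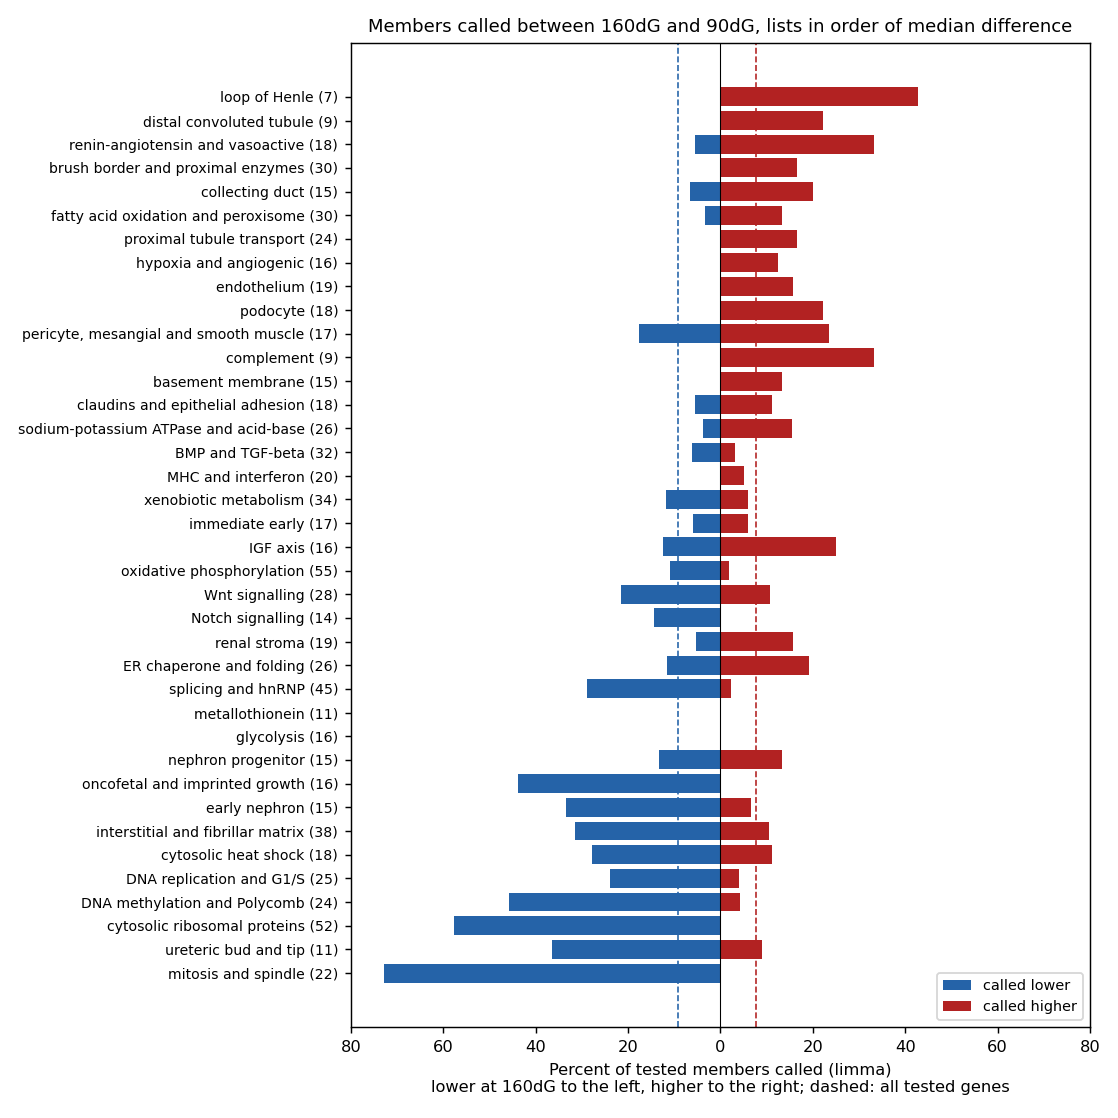
Percent of tested members called lower (left, blue) and higher (right, red) at 160dG in each gene list with 7 or more tested members; the number tested is in brackets and the dashed lines mark 9.25% and 7.65% of all genes. Lists are ordered by median difference, from -1.19 for mitosis and spindle at the bottom to 0.42 for the loop of Henle at the top.

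Among nephron progenitor genes the direction was mixed. Of 15 tested members, 2 fell, MYCN and EYA1, and 2 rose, CITED2 and FGF9 (median -0.31). EYA1, a coactivator needed to induce the kidney, read 264, 395 and 312 on the 90dG arrays and 136, 122 and 171 on the 160dG arrays (-1.09 ± 0.22, limma adjusted p = 0.00483) and was not called in the reduced fit (adjusted p = 0.129 in limma). FGF9, a growth factor that keeps progenitors alive, read 204, 296 and 221 on the 90dG arrays and 522, 446 and 408 on the 160dG arrays (0.90 ± 0.20, limma adjusted p = 0.00919), and the reduced fit held it. CITED2, a transcriptional coregulator, differed by 0.95 ± 0.24, with a second probe set at 0.25, and was called neither in the reduced fit (0.50) nor with the GAPDH covariate (0.64). The median of the list was -0.08 without 160dG replicate 1, -0.13 without 160dG replicate 3 and -0.11 after quantile normalization. PAX2, which acts in bud and progenitors, differed by -0.52 ± 0.18 (limma, adjusted p = 0.0611) and WT1 by 0.17 ± 0.29, neither called. The progenitor factor SIX2 was too dim to be tested, at 182, 212 and 143 on the 90dG arrays and 89.0, 77.5 and 119 on the 160dG arrays, as was CITED1 at 47.8, 105 and 144 on the 90dG arrays and 12.8, 58.9 and 13.8 on the 160dG arrays.

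The early nephron list, the genes of renal vesicles and their first derivatives, had 5 falls and 1 rise among 15 tested members (median -0.32). The falls were LEF1, the transcription factors SOX9 and SOX11, the Notch target HEY1 and the cadherin CDH2. SOX9 read 767, 635 and 749 on the 90dG arrays and 182, 350.1 and 285 on the 160dG arrays (-1.39 ± 0.23, limma adjusted p = 0.00154), but a second SOX9 probe set differed by 0.36. HEY1 read 743, 1103 and 1159 on the 90dG arrays and 445, 587 and 489.6 on the 160dG arrays (-0.94 ± 0.20, limma adjusted p = 0.00651). CDH2, N-cadherin, differed by -0.99 ± 0.26, with a second probe set at 0.33, and SOX11 by -0.65 ± 0.18. LHX1, which patterns the vesicle, differed by -0.62 ± 0.25 and was not called. SFRP1, a secreted Wnt antagonist also of the stroma, rose from 888, 688 and 1085 to 2357, 2034 and 2278 (1.33 ± 0.26, limma adjusted p = 0.00494). Further SFRP1 probe sets, dimmer than this one, differed by 2.33 and 2.27. The reduced fit called 2 falls and no rise.

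Of 11 tested ureteric bud and tip genes, 4 fell and 1 rose (median -0.58). EMX2, a homeobox gene of the bud, read 2910.1, 2343 and 3212 on the 90dG arrays and 1728, 1378 and 1108 on the 160dG arrays (-1.01 ± 0.18, limma adjusted p = 0.00306), and it was held in the reduced fit. GATA3, which restrains bud outgrowth, read 3978, 4863 and 4628 on the 90dG arrays and 2034, 3107 and 2580.5 on the 160dG arrays (-0.81 ± 0.16, limma adjusted p = 0.00458). The feedback inhibitors of receptor signalling DUSP6 (-0.95 ± 0.26) and SPRY1 (-0.65 ± 0.16) fell as well. The receptor RET read 412, 252 and 296 on the 90dG arrays and 98.7, 377 and 246 on the 160dG arrays, with a wide spread at 160dG, and was not called (-0.53 ± 0.34). CALB1, a calcium-binding protein of the bud and later of the distal tubule, is described with the distal genes. Only EMX2 among these falls was called in the reduced fit.

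Signalling pathways split by member. In the Wnt list 6 of 28 tested genes fell and 3 rose (median -0.09). Falls were the antagonist DKK1, the effectors LEF1 and TCF7L1 (-0.65 ± 0.19), and the receptors LRP5 (-1.31 ± 0.26), FZD2 (-1.29 ± 0.26) and FZD1 (-0.79 ± 0.18). A second FZD1 probe set differed by 0.32. Rises were SFRP1, the receptor FZD6 (1.30 ± 0.27) and APC, a scaffold of the complex that degrades beta-catenin (0.77 ± 0.22). FZD2 read 745, 1123 and 1429.9 on the 90dG arrays and 309.9, 499 and 494 on the 160dG arrays, and FZD6 146, 277 and 193 on the 90dG arrays and 421, 588 and 551 on the 160dG arrays, and these receptors of one family moved in opposite directions. In the reduced fit 2 Wnt genes were lower and 2 higher, and FZD2 gave -0.79 without a call (limma adjusted p = 0.188). It also lost FZD1 (-0.71), LRP5 (-1.06), TCF7L1 (-0.76) and SFRP1 (1.30). Of 14 Notch genes HEY1 and the receptor NOTCH3 (-0.74 ± 0.23) fell. Of 32 BMP and TGF-beta genes 2 fell, the ligand BMP4 (-1.30 ± 0.38) and the activin trap FST (-0.99 ± 0.29), and the effector SMAD2 rose (0.68 ± 0.17), so both lists had a lower share of calls than the 16.9% of all genes. Of these genes only FST was called in the reduced fit, where BMP4 gave -0.69 and SMAD2 0.32.

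In the oncofetal and imprinted list 7 of 16 tested genes were lower and none higher, with a median of -0.32. Besides HMGA2, its relative HMGA1 read 713, 714 and 986 on the 90dG arrays and 299, 222 and 324 on the 160dG arrays (-1.46 ± 0.21, limma adjusted p = 8.69e-04). IGF2BP3, an RNA-binding protein of fetal cells, read 361, 383 and 407 on the 90dG arrays and 140.1, 102 and 153 on the 160dG arrays (-1.45 ± 0.23, limma adjusted p = 0.00143), and its relative IGF2BP2 differed by -0.89 ± 0.28. The imprinted genes MAGEL2 (-1.54 ± 0.22) and MEST (-1.21 ± 0.17) fell, MEST from 11396, 10945 and 11534 to 3838, 4599 and 6608. GPC3, a glypican that limits growth, differed by -1.05 ± 0.25. IGF2BP2 and GPC3 lost the call in the reduced fit and with the GAPDH covariate, while the other named genes kept it in both. IGF2BP2 kept its call in 8 of 20 alternative settings, with differences from -1.22 to -0.23.

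In the IGF list binding proteins went both ways, with 4 rises and 2 falls among 16 tested genes. IGFBP3, IGFBP5 and IGFBP7, which bind insulin-like growth factors outside the cell, rose by 0.89 ± 0.22, 0.71 ± 0.13 and 0.53 ± 0.12. IGFBP5 read 4122, 3555 and 3671 on the 90dG arrays and 6889, 6384 and 5343 on the 160dG arrays (limma, adjusted p = 0.00403). IGFBP2 fell from 3940.0, 4578 and 4351 to 3070.2, 3315 and 1732 (-0.71 ± 0.21, limma adjusted p = 0.0355). PAPPA2, a protease that cleaves such binding proteins, differed by -0.70 ± 0.21, with a second probe set at 0.33. GRB14, an adaptor that dampens the insulin receptor, rose from 346, 429 and 417 to 806, 936 and 765 (1.04 ± 0.16, limma adjusted p = 0.00115), and its 60dG arrays read 930.4 and 749, in the range of the 160dG arrays or just below it. The reduced fit gave 3 rises and 1 fall, without IGFBP5 (adjusted p = 0.0957 in limma) and IGFBP2 (0.298), and the GAPDH covariate gave 5 rises and 0 falls. IGFBP2 was also not called after quantile normalization (-0.46, limma adjusted p = 0.169).

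The interstitial matrix had more falls than rises, 12 and 4 of 38 tested genes, with a median of -0.37. Its falls were fibrillar collagens, elastic fibre proteins and the enzymes and chaperones that process them. COL1A1, a chain of type I collagen, read 17394, 14917 and 19174 on the 90dG arrays and 8612, 7306 and 7889.6 on the 160dG arrays (-1.11 ± 0.13, limma adjusted p = 2.53e-04), and COL1A2, the partner chain, 12508, 11054 and 12408 on the 90dG arrays and 7496, 6715 and 6435 on the 160dG arrays (-0.80 ± 0.12, limma adjusted p = 9.12e-04). The other COL1A1 probe sets differed by -1.41 and 0.17. COL5A2 differed by -0.80 ± 0.15. COL3A1, of type III collagen, read 3072, 4577 and 9104 on the 90dG arrays and 3834, 2521 and 4488 on the 160dG arrays, with overlapping groups, differed by -0.52 ± 0.33 and was not called. SERPINH1, the collagen chaperone HSP47, read 3357, 3439 and 4271 on the 90dG arrays and 1906, 1724 and 1735 on the 160dG arrays (-1.03 ± 0.14, limma adjusted p = 6.32e-04), and PCOLCE, which speeds procollagen cleavage, differed by -0.94 ± 0.18.

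Elastic fibre genes were part of the same falls. FBN2, the fetal fibrillin, read 796, 634 and 614 on the 90dG arrays and 268, 245 and 239 on the 160dG arrays (-1.38 ± 0.21, limma adjusted p = 0.00103). Elastin, ELN, read 2039.5, 1355 and 1354 on the 90dG arrays and 1207, 612 and 583 on the 160dG arrays (-1.02 ± 0.25, limma adjusted p = 0.0162), with a second probe set at 0.43 against that direction. LOXL1, which crosslinks elastin, read 1477, 1559 and 1726 on the 90dG arrays and 680.5, 826 and 865 on the 160dG arrays (limma adjusted p = 0.0012), and the microfibril protein MFAP2 differed by -1.04 ± 0.23. The membrane metalloproteinase MMP14 (-0.80 ± 0.19) and the inhibitor TIMP1 (-0.67 ± 0.14) fell, whereas TIMP2 and TIMP3 rose. TIMP3 read 508, 283 and 277 on the 90dG arrays and 883, 951 and 681 on the 160dG arrays (1.24 ± 0.24, limma adjusted p = 0.00453), and a second probe set of it differed by 0.63. PLOD2, a lysyl hydroxylase, was higher by 0.90 ± 0.23. In the reduced fit 6 falls and 0 rises of the list were called.

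Of 19 stromal genes (median -0.12, or 0.11 after quantile normalization) 3 rose, SFRP1 and the proteoglycans ASPN (1.13 ± 0.27) and OGN (0.69 ± 0.23), and 1 fell, LGALS1, galectin-1. LGALS1 read 946, 715 and 1333 on the 90dG arrays and 360.0, 342 and 316 on the 160dG arrays (-1.47 ± 0.29, limma adjusted p = 0.00471). FOXD1, the factor that marks stromal progenitors, differed by -0.44 ± 0.21 (limma, adjusted p = 0.165) and was not called. Of 15 basement membrane genes 2 rose, the laminin chain LAMB1 (0.68 ± 0.17; a second probe set gave -0.09) and COL4A3 of the mature glomerular membrane (1.02 ± 0.30). No stromal or basement membrane gene was called in the reduced fit.

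Some transport genes of the distal nephron rose. Of 7 tested loop of Henle genes 3 were higher, with a median of 0.42. SLC12A1, the sodium-potassium-chloride cotransporter of the thick ascending limb that loop diuretics block, read 506, 723 and 568 on the 90dG arrays and 2471, 1558 and 1371 on the 160dG arrays (1.53 ± 0.24, limma adjusted p = 0.00131), or 2.89-fold. The prostaglandin receptor PTGER3 read 279, 238 and 241 on the 90dG arrays and 933, 933 and 626 on the 160dG arrays (1.64 ± 0.22, limma adjusted p = 6.32e-04), and 2 further probe sets of it differed by 1.35 and 1.40. For both genes every 160dG array lay well above every 90dG array. KCNJ1 is described above. The reduced fit gave 1.75 for SLC12A1 and 1.50 for PTGER3 and held both calls.

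Of 9 distal convoluted tubule genes all had positive differences and 2 were called. CALB1, calbindin, which carries calcium through distal cells, read 335, 628 and 522 on the 90dG arrays and 1514, 1072 and 1758 on the 160dG arrays (1.53 ± 0.24, limma adjusted p = 0.00118). Its 60dG arrays read 843 and 849, between both groups. WNK1, a kinase that switches sodium chloride transport, differed by 0.66 ± 0.20. SLC12A3, the cotransporter that defines the segment, was too dim to be tested, at 242, 121 and 168 on the 90dG arrays and 254, 149 and 182 on the 160dG arrays, with overlapping groups. In the collecting duct 3 of 15 tested genes rose and GATA3 fell. SCNN1A, the alpha subunit of the sodium channel ENaC, read 244, 311 and 373 on the 90dG arrays and 851, 433 and 674 on the 160dG arrays (1.01 ± 0.26, limma adjusted p = 0.0191), and NR3C2, the receptor of aldosterone that governs it, 209.6, 228 and 292 on the 90dG arrays and 446, 529.5 and 505 on the 160dG arrays (0.98 ± 0.24, limma adjusted p = 0.0151). The chloride channel CLCN3 rose by 0.59 ± 0.16. CALB1 and CLCN3 were called in the reduced fit, and WNK1, SCNN1A and NR3C2 were not, at larger differences of 0.75, 1.31 and 1.17. AQP2, the water channel set by vasopressin, read 370.0, 235 and 307 on the 90dG arrays and 404, 399.5 and 310.0 on the 160dG arrays, with overlapping groups, and was not called (0.29 ± 0.21).

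ATP1B1, the beta subunit of the sodium pump, read 5519, 5909 and 5686 on the 90dG arrays and 10404, 8609 and 8251 on the 160dG arrays (0.66 ± 0.14, limma adjusted p = 0.00634). In its list of pump and acid-base genes 4 of 26 tested members rose and 1 fell, a share of calls near the 16.9% of all genes. With ATP1B1 the proton pump subunits ATP6V1A (0.62 ± 0.17) and ATP6AP2 (0.70 ± 0.21) and the carbonic anhydrase CA12 (0.70 ± 0.20) rose, and FXYD6 fell (-0.79 ± 0.20). Of these 5 only CA12 was called in the reduced fit. Among claudins and adhesion genes 2 of 18 rose, the tubule cadherin CDH16, which read 498, 408 and 261 on the 90dG arrays and 960.3, 781 and 911 on the 160dG arrays (1.19 ± 0.26, limma adjusted p = 0.00878), and the epithelial marker EPCAM (0.83 ± 0.18, limma adjusted p = 0.00927). The list also held the fall of CDH2 given above (-0.99), and its share of calls was close to the 16.9% of all genes. EPCAM was held in the reduced fit, and CDH16 and CDH2 were not.

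**Figure D5:**
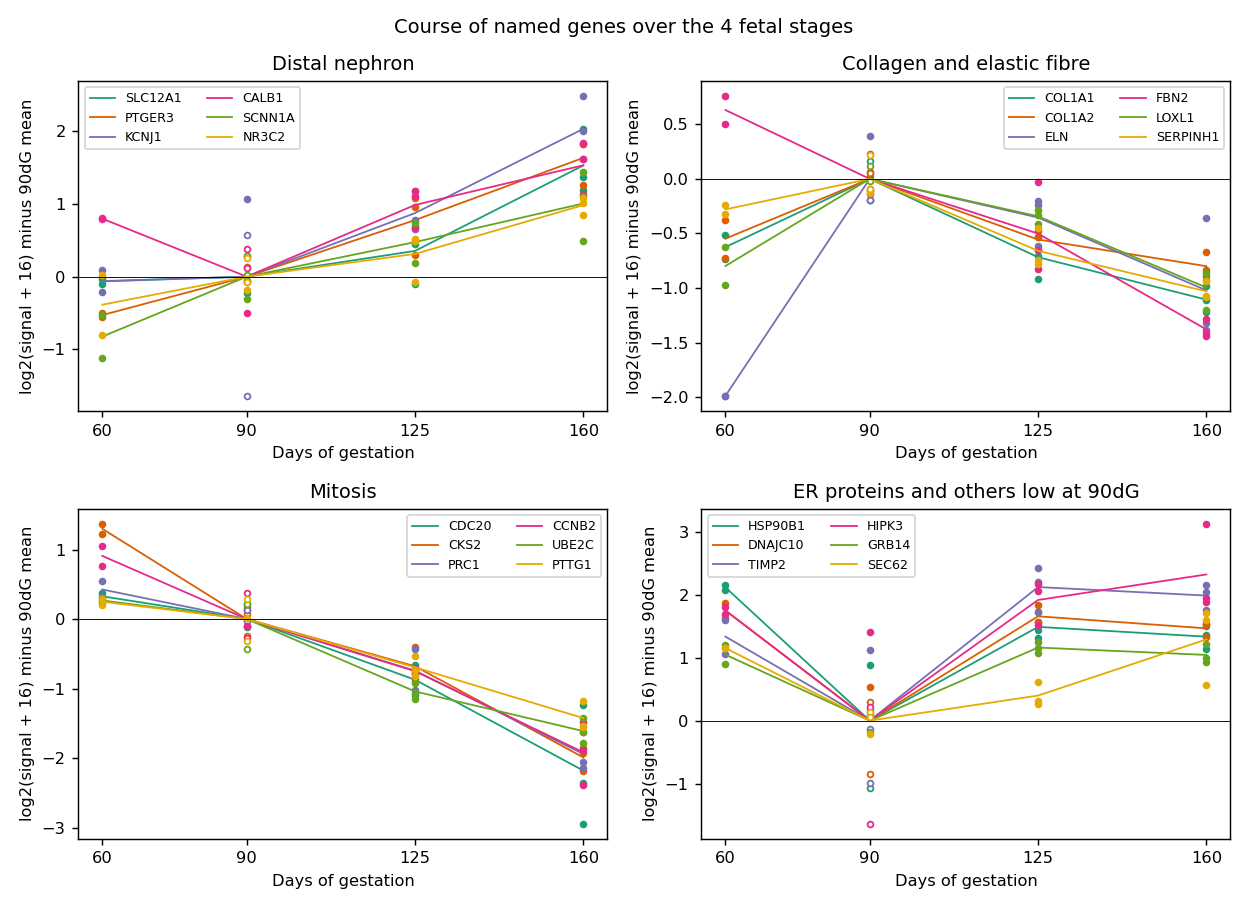
Course over the 4 fetal stages (x axis, days of gestation) of 24 named genes in 4 panels, as log2(signal + 16) minus each gene's 90dG mean; points are arrays, lines join stage means and open points are 90dG replicates 2 and 3. SLC12A1 and PTGER3 stay near or below their 90dG level at 60dG and end above it, while HSP90B1, DNAJC10, TIMP2 and HIPK3 are higher at 60dG than at 90dG.

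The proximal tubule, which reabsorbs most of the filtrate, had 4 rises among 24 tested transport genes and 5 among 30 brush border genes and enzymes, with no fall and medians of 0.22 and 0.29. Both shares of calls were close to the 16.9% of all tested genes, of which 7.65% were called higher and 9.25% lower. The endocytic receptors LRP2 and CUBN, the phosphate carrier SLC34A1 and the water channel AQP1 were not called, at 0.27 ± 0.31, 0.21 ± 0.43, 0.04 ± 0.20 and 0.28 ± 0.21. AQP1 read 2156, 2249 and 1782 on the 90dG arrays and 2566, 1801 and 3389 on the 160dG arrays, so the groups overlapped. The called transporters were SLC3A1, a subunit of the cystine carrier (1.43 ± 0.42), the chloride exchanger CLCN5 of endosomes (1.07 ± 0.24), the potassium channel KCNJ15 (0.68 ± 0.18) and the peptide carrier SLC15A2 (0.66 ± 0.19). CLCN5 read 132, 182 and 235 on the 90dG arrays and 370.3, 476 and 339 on the 160dG arrays (limma, adjusted p = 0.00919) and was held in the reduced fit, which did not call SLC3A1 (0.61), KCNJ15 (0.50) or SLC15A2 (0.80). Without 160dG replicate 3 the median of the transport list was -0.01 and 1 member rose. The brush border median was 0.07 without 90dG replicate 3, 0.11 without 160dG replicate 3, and adjusting for the GAPDH ratio gave 0.05.

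Of the enzymes, AOC1 and CYP27B1 are given above. GATM, which makes the precursor of creatine, read 958, 1832 and 472 on the 90dG arrays and 4323, 1331 and 4849 on the 160dG arrays (1.67 ± 0.48, limma adjusted p = 0.029), with overlapping groups and a low value in 160dG replicate 2. EZR, ezrin, which ties microvilli to the membrane, read 1584, 516 and 188 on the 90dG arrays and 1655, 1618 and 1491 on the 160dG arrays (1.52 ± 0.49, limma adjusted p = 0.0472). 90dG replicate 1 overlapped the 160dG arrays, and the reduced fit gave 0.00222 and no call. The 3 other EZR probe sets differed by 0.58, -0.06 and 0.98. The peptidase MME, neprilysin, rose by 0.78 ± 0.18. Only AOC1 of the list was called in the reduced fit.

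Podocyte genes gave 4 rises and no fall among 18 tested members (median 0.19). COL4A3, a chain of the glomerular basement membrane, read 409.5, 608 and 587 on the 90dG arrays and 586, 1408 and 1558 on the 160dG arrays (1.02 ± 0.30, limma adjusted p = 0.0324), and the lowest 160dG array overlapped the 90dG arrays. Further COL4A3 probe sets, dimmer than this one, differed by 1.76 and 1.74. PLCE1, a phospholipase whose loss causes nephrotic syndrome, differed by 0.90 ± 0.28, the protease HTRA1 by 0.74 ± 0.20 and THSD7A by 0.68 ± 0.19. Nephrin, NPHS1, read 211, 71.7 and 228 on the 90dG arrays and 231, 195 and 177 on the 160dG arrays, and podocalyxin, PODXL, 353, 317 and 416 on the 90dG arrays and 285, 188 and 207 on the 160dG arrays. Neither was called, at 0.35 ± 0.34 and -0.65 ± 0.26. No podocyte gene was called in the reduced fit, where the median was 0.33 and COL4A3, HTRA1, THSD7A and PLCE1 gave 1.38, 0.80, 0.64 and 0.31, nor any without 160dG replicate 3.

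Among vascular and vasoactive genes more rose than fell. Of 18 tested genes of the renin-angiotensin and other vasoactive systems 6 rose and 1 fell (median 0.33). Both angiotensin receptors were called, in opposite directions. AGTR1, the type 1 receptor that constricts vessels, read 208, 175 and 160.4 on the 90dG arrays and 303, 320.2 and 552 on the 160dG arrays (1.00 ± 0.27, limma adjusted p = 0.0233), and AGTR2, the type 2 receptor of fetal tissue, 665, 875 and 531 on the 90dG arrays and 465, 271 and 441 on the 160dG arrays (-0.80 ± 0.26, limma adjusted p = 0.0474). The other AGTR2 probe sets differed by 0.099 and 0.15, and neither receptor was called in the reduced fit. NPR3, which clears natriuretic peptides, read 193, 175 and 164 on the 90dG arrays and 545, 444 and 564 on the 160dG arrays (1.46 ± 0.22, limma adjusted p = 0.00108), and its 60dG arrays read 400.0 and 425. PTGDS, a prostaglandin D synthase, differed by 1.34 ± 0.24. With PTGER3 and PTGER4, NPR3 was held in the reduced fit.

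In the endothelial list 3 of 19 tested genes rose, the phosphatase PTPRB (0.96 ± 0.20), the endothelin receptor EDNRB (0.73 ± 0.17) and the sialomucin EMCN (0.81 ± 0.22), and none was called in the reduced fit or with the GAPDH covariate. The endothelial share of calls was close to the 16.9% of all genes. In pericytes and smooth muscle 4 of 17 rose and 3 fell. RGS5, a pericyte regulator of G proteins, read 243, 343 and 256 on the 90dG arrays and 529, 783 and 495 on the 160dG arrays (1.04 ± 0.24, limma adjusted p = 0.0118), and the contractile genes MYLK and CALD1 rose by 1.02 ± 0.26 and 0.66 ± 0.15. In the reduced fit RGS5 and MYLK gave 1.22 and 1.16 without a call, and CALD1 kept its call. MCAM, an adhesion molecule of pericytes, fell from 365, 312 and 431 to 156, 175 and 171 (-1.06 ± 0.18, limma adjusted p = 0.00212) and was held in the reduced fit. Of 16 hypoxia and angiogenic genes CA12 and the growth factor ANGPT1 (0.66 ± 0.20) rose, a share below the 16.9% of all genes. In the reduced fit ANGPT1 gave 0.57 without a call.

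None of 6 tested macrophage and leukocyte genes was called in limma, and the markers PTPRC and CD163, too dim to be tested, read at most 73.6 and 65.6 on the 6 arrays. The summed signal of the whole marker list was 3616 to 3824 at 90dG and 3603 to 3769 at 160dG. Of 20 tested MHC and interferon genes B2M, the light chain of class I, rose from 5699, 5470.3 and 3540.4 to 10859, 7782 and 8713 (0.91 ± 0.18, limma adjusted p = 0.00453). A second B2M probe set differed by 0.25. B2M was the single call of that list, a share below the 16.9% of all genes. Of 9 complement genes 3 rose, the membrane regulators CD46 (1.25 ± 0.21, limma adjusted p = 0.00214) and CD59 (0.53 ± 0.17) and the late component C7 (0.85 ± 0.24). Second probe sets of CD46 and CD59 differed by 0.71 and 0.03. The complement share of calls was above 16.9%, from only 9 tested genes. The chemokine CXCL14 read 666, 1311 and 659 on the 90dG arrays and 1579.6, 1558 and 3808 on the 160dG arrays (1.32 ± 0.34, limma adjusted p = 0.0182). It was the single call among 5 tested chemokine genes, a share close to the 16.9% of all genes. B2M, CD46, CD59, C7 and CXCL14 all lost the call in the reduced fit. No adrenal (2 tested) or adipocyte (2 tested) gene was called, and no skeletal muscle gene was bright enough to be tested.

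Cytosolic ribosomal proteins fell by small amounts in most members. Of 52 tested, 30 were lower and none higher, and the median was -0.52. RPL27 read 14449.6, 10606 and 11104 on the 90dG arrays and 7451, 6255 and 6063 on the 160dG arrays (-0.86 ± 0.14, limma adjusted p = 0.00125), RPL12 differed by -0.86 ± 0.12, RPL8 by -0.81 ± 0.12, RPL34 by -1.02 ± 0.24 and RPS29 by -0.88 ± 0.25. RPL38 differed by -0.90 ± 0.20, but 2 further probe sets of it gave 0.12 and 0.16. After quantile normalization, which forces the same distribution on every array, 5 members fell, 1 rose and the median was -0.19. The reduced fit called 10 of them lower, with a median of -0.54.

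Splicing factors and hnRNP proteins had 13 falls and 1 rise among 45 tested genes (median -0.17). HNRNPL read 3357, 3805 and 5565 on the 90dG arrays and 1829, 1555 and 1475 on the 160dG arrays (-1.35 ± 0.20, limma adjusted p = 8.69e-04), and SNRPA, of the U1 particle, 1237, 1193 and 2198 on the 90dG arrays and 563, 574 and 584 on the 160dG arrays (-1.34 ± 0.21, limma adjusted p = 0.0011). PTBP1, a repressor of exons, differed by -1.01 ± 0.19, HNRNPAB by -1.13 ± 0.25 and NONO by -0.77 ± 0.12, though the other NONO probe sets gave 0.021 and -0.14. HNRNPH1 was higher (1.04 ± 0.33). Quantile normalization gave 8 falls and 5 rises, and the reduced fit 5 falls and no rise.

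Energy metabolism changed in few members. Of 55 subunits of oxidative phosphorylation 6 fell, among them ATP5F1E (-0.89 ± 0.20), UQCR11 (-0.84 ± 0.22), COX6B1 (-0.80 ± 0.20) and UQCRC1 (-0.68 ± 0.16), and UQCRC2 rose (0.57 ± 0.16), so the share called was below that of all genes. In the reduced fit ATP5F1E, UQCR11, COX6B1 and UQCRC1 gave -0.78, -0.85, -0.41 and -0.73 without a call, and UQCRC2 also lost its call. The fit with the GAPDH covariate called 3 falls and no rise of the list. In fatty acid oxidation 4 of 30 rose and 1 fell, a share close to the 16.9% of all genes. The fall was HSD17B10 (-0.62 ± 0.18), whose call was lost in the reduced fit and with the GAPDH covariate. PPARGC1A, a coactivator that drives mitochondrial genes, read 140.4, 328 and 283 on the 90dG arrays and 714, 622 and 707 on the 160dG arrays (1.46 ± 0.28, limma adjusted p = 0.00439), and ACSL1, which activates long-chain fatty acids, 193, 214 and 130.5 on the 90dG arrays and 618, 448 and 392 on the 160dG arrays (1.36 ± 0.24, limma adjusted p = 0.00238). Both were held in the reduced fit, whereas the nuclear receptor PPARA (0.72 ± 0.22) and the peroxisome factor PEX3 (0.73 ± 0.22) were not. None of 16 glycolysis or 11 metallothionein genes was called in limma, with medians of -0.30 and -0.23.

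Chaperones and folding genes of the endoplasmic reticulum moved both ways. Of 26 tested, 5 rose and 3 fell. HSP90B1, the chaperone GRP94, read 687, 412 and 164 on the 90dG arrays and 953, 817 and 1064 on the 160dG arrays (1.34 ± 0.35, limma adjusted p = 0.0193), and its 60dG arrays read 1676 and 1583, above every later array. DNAJC10 (1.47 ± 0.28), LMAN1 (1.63 ± 0.51), SEC62 (1.29 ± 0.25) and SEC63 (1.01 ± 0.21) rose, and HYOU1 (-1.04 ± 0.21), HSPA5, the chaperone BiP (-0.71 ± 0.18), and CALR (-0.81 ± 0.22) fell. A second HSP90B1 probe set differed by -0.05, and in the reduced fit HSP90B1 gave 0.44 and LMAN1 0.19, neither called. Of 18 tested genes in the cytosolic heat shock list, which also holds the mitochondrial HSPE1, 5 fell and 2 rose. The falls included STIP1 (-0.96 ± 0.23), HSPB1 (-0.90 ± 0.27), HSPE1 (-0.89 ± 0.27) and HSP90AB1 (-0.49 ± 0.15), and the rises were HSP90AA1 (0.88 ± 0.28) and CRYAB. CRYAB, a small heat shock protein, read 509, 654 and 648 on the 90dG arrays and 1268, 1109.8 and 1096 on the 160dG arrays (0.93 ± 0.16, limma adjusted p = 0.00261) and was held in the reduced fit. The other HSP90AA1 probe sets gave -0.044, 0.73 and 0.11, and a second HSP90AB1 probe set 0.0044. HSPB1 (-0.94), HSPE1 (-0.76) and HSP90AA1 lost the call in the reduced fit and also with the GAPDH covariate. With only the 90dG and 160dG arrays the list had 1 fall, and without 160dG replicate 3 it had 0.

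Of 34 xenobiotic genes 4 fell and 2 rose, a share of calls close to the 16.9% of all genes. The glutathione transferase GSTP1 read 2016, 1764 and 2353 on the 90dG arrays and 1184, 1234 and 846 on the 160dG arrays (-0.91 ± 0.18, limma adjusted p = 0.00453), and GSTM3 (-0.72 ± 0.19), GSTA4 (-0.68 ± 0.18) and the dehydrogenase ADH5 (-1.09 ± 0.27) fell with it. NQO1, a quinone reductase, and UGT2B15, a glucuronosyltransferase, rose by 0.87 ± 0.27 and 1.15 ± 0.35. UGT2B28 differed by 1.23 ± 0.46 (limma, adjusted p = 0.0824) and was not called. None of the 6 called genes was held in the reduced fit. Of 17 immediate early genes, whose transcripts appear within minutes of a stimulus, the phosphatase DUSP1 rose (0.78 ± 0.23) and JUND fell (-0.65 ± 0.19), a share below that of all genes.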

How the data were processed

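Per the labels' protocols, Trizol was used to extract RNA from whole kidney, and biotinylated cRNA was hybridised. Deposited values are linear probe set intensities, and the submitters' processing notes name GCOS as the authors' software. Its version, algorithm and scaling are not given in the sources. Of 16186 probe sets 43 are controls. Gene names came from the platform annotation. Groups were taken from the labels.

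The brightest probe set by mean over 11 fetal arrays stood for each of 9580 genes, as log2(signal + 16), without rescaling. Genes with a mean above the median of all probe sets (7.60, a signal of 178) were tested, so a gene bright at 1 stage alone can pass. The contrast was fitted with limma 3.58.1 in R 4.3.3 over all 11 fetal arrays (lmFit, eBayes with an intensity trend, Benjamini-Hochberg over 5278 genes). P-values rest on 3 arrays a stage, whose number limits the precision. The script was tested on simulated data, and matplotlib 3.10.9 drew the figures.

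The contrast and the 47 gene lists were chosen with earlier results of these data known. Named genes are the 15 largest called differences each way without overlap, up to 4 called members of each list with the largest difference, and a fixed set of kidney genes, of which some are not reported here. All other names were picked with the values in view. Alternatives were another offset (1 or 64), no filter or one at the 0.75 quantile, quantile normalization, eBayes without trend, array weights, the 6 arrays alone, the GAPDH ratio as covariate, a replicate block, all probe sets or their mean, and leaving out arrays or groups. Adult arrays, of another type, were not used.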

Additional observations from a re-analysis of the deposited data

How the results depend on the processing

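The number of arrays limits what could be called. Of 202 called genes among those chosen for naming, 72 were called in every setting in which they were tested. The other 130 lost the call in some setting, and none changed sign. A gene removed by the filter at the 0.75 quantile was not tested there. The count of all calls, 892, fell to 592 (254 higher) with only the 90dG and 160dG arrays, to 434 (217 higher and 217 lower) with the GAPDH ratio as covariate, and to 278 (148 higher and 130 lower) without 90dG replicates 2 and 3. A filter at the 0.75 quantile of signal left 231 higher genes, with fewer genes tested, and testing all probe sets gave 637. Leaving out 1 array gave 485 to 898 calls, 214 to 415 higher and 269 to 483 lower. Offsets of 1 and 64 gave 884 and 908 calls, no filter 757, array weights 935 and eBayes without trend 772. Quantile normalization gave 813 calls and the mean over probe sets 947, with 6 and 7 of the 892 genes turned in sign. Apart from the filter, the cause was not tested.

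Replicate numbers occur at both stages, and the labels state no pairing. The deviations of same-numbered arrays from their stage means correlated at 0.14, -0.023 and 0.069. Those of differently numbered arrays correlated at -0.14 to 0.071. So few pairs cannot show whether same-numbered arrays share more than a number. A fit with the replicate number as a block called 836 genes, 381 higher and 455 lower. 90dG replicate 1 correlated best with its own number at 160dG, and replicates 2 and 3 did not.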

Other observations

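Genes too dim for the test were also compared without the filter on low signal. Of 4302 such genes 107 were called in limma, 58 higher and 49 lower at 160dG, and the following were named after their values were seen. DPT, dermatopontin, a matrix protein that binds collagen, read 8.7, 3.9 and 17.9 on the 90dG arrays and 569, 180.4 and 535 on the 160dG arrays, a difference of 3.96 ± 0.47 (limma, adjusted p = 4.22e-04). HSD11B2, which shields the aldosterone receptor from cortisol, read 34.9, 113 and 139 and 381, 461 and 617 (2.29 ± 0.37), in the same direction as NR3C2 and SCNN1A above. The transcription factors HLF and HNF4G (2.71 and 2.08) and the polarity gene PARD6B (1.90) were also higher.

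On the falling side, HBZ, the zeta globin of embryonic red cells, read 190.1, 104 and 320.0 and 20.7, 8.9 and 6.00 (-2.90 ± 0.45; limma, adjusted p = 0.00206). MEOX1, a homeobox gene listed with the nephron progenitors, read 293, 319 and 290.0 and 24.7, 70.6 and 60.7 (-2.29 ± 0.29). The cell cycle genes MYBL2 (-2.57), CENPM (-2.29), BIRC5 (-2.02) and AURKB (-1.82) and the cartilage matrix gene COMP (-1.68) were lower. Without both 90dG replicates 2 and 3, a setting added after seeing the data, DPT, HLF, HSD11B2, PARD6B, HBZ, MEOX1 and BIRC5 stayed below an adjusted p of 0.05 in limma, and HNF4G (adjusted p = 0.119), MYBL2 (0.083), CENPM (0.0599), AURKB (0.108) and COMP (0.14) did not. The signals of these genes are low, and the files hold no detection calls.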
